A study of Homo sapiens with 8 samples.

Results

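The subject is a stretch of proximal chromosome 14 whose genes stood higher, almost without exception, in HepG2 cells that overexpress DNMT3A. It was drawn from the authors' table of FPKM values (fragments scaled to gene length and library size) with 3 conditions on each gene. The gene had to be protein-coding, to start at or after 20 Mb and before 45 Mb on hg38 chromosome 14, and to average at least 1 FPKM over the 8 libraries. Of 58735 genes in the table, 97 met them, among 11620 genes of any kind and 10038 protein-coding genes at that level. The interval was selected on the fold changes of its genes between these same libraries, so every difference between DNMT3A and control libraries given for these genes describes how they were found and is no test.

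HepG2 is an established line of human hepatocellular carcinoma cells. The DNMT3A group was infected with a lentivirus made to overexpress DNMT3A (genotype label DNMT3A overexpression, library names pLV_EGFP_DN). The control group received a control lentivirus (genotype label WT, library names pLV_EGFP_NC), so both groups had been infected. Each group had 4 poly(A) RNA libraries, and the labels do not say that these came from separate infections or cultures, so their spread may be technical. The promoter of the vector, the time after infection and whether the cells were clones are not stated in these sources. Recovered reads ranged from 17232809 to 17626137 in the DNMT3A libraries and from 15911019 to 17677093 in the control libraries.

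DNMT3A writes new methyl groups onto cytosines that precede guanines (CG sites) in DNA, and methylation of a CG-rich promoter is known for accompanying silence of its gene. The stretch described here holds no single pathway. It is known for the genes of the proteasome activator PA28, a family of short-chain dehydrogenases, ribonucleases of the RNase A family, and, farther along, the liver pioneer factor FOXA1 beside several genes of vesicle transport. Since cells were measured in bulk, more RNA per cell and more cells that carry the RNA cannot be told apart.

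The DNMT3A transcript measured 9.75, 10.21, 8.52 and 7.26 FPKM in DNMT3A libraries 1 to 4, against 3.63, 3.89, 3.45 and 3.64 FPKM in control libraries 1 to 4. The groups did not overlap, and the difference was 1.09 ± 0.093 on the log2(FPKM + 1) scale (SE, adjusted p = 0.000122 by limma; an exact permutation test over libraries, two-sided, gave p = 0.0286, which is the minimum for 70 assignments). All 11 hepatocyte and hepatoma markers listed averaged at least 1 FPKM, with ALB, the serum albumin gene, at 6220 FPKM. Of these 11, 3 were called higher and 0 lower by limma, against 9.93% and 10.6% of all tested genes. AFP, alpha-fetoprotein, ranged from 866.7 to 1275 FPKM in the DNMT3A libraries and from 357.6 to 380.1 FPKM in the controls. FGB, the fibrinogen beta chain, ranged from 94.04 to 114.8 FPKM in the DNMT3A libraries and from 32.5 to 36.1 FPKM in the controls. TTR, the carrier transthyretin, ranged from 15.9 to 18.7 FPKM in the DNMT3A libraries and from 5.14 to 7.85 FPKM in the controls. None of 5 fibroblast and none of 3 endothelial markers reached 1 FPKM, and LUM, the matrix proteoglycan lumican, was at 0. Of 4 leukocyte markers 1 did, LYZ (lysozyme, 279.5 FPKM), while PTPRC and CD3E, the defining markers, were at 0. The summed leukocyte markers, nearly all LYZ, ranged from 314 to 344.8 FPKM in the DNMT3A libraries and from 197.6 to 263.9 FPKM in the controls. CD14, the other leukocyte marker detected, lay the other way, with 0.633 to 0.695 FPKM in the DNMT3A libraries and 1.109 to 1.598 FPKM in the controls. The part of these marker differences in the values of the block was not tested.

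The 97 block genes were higher as a body. Their summed level was 2631, 2631, 2710 and 2689 FPKM in DNMT3A libraries 1 to 4, against 1810, 1802, 1768 and 1742 FPKM in control libraries 1 to 4. They took 1.281 ± 0.017% of all reads in the DNMT3A libraries and 0.8475 ± 0.00682% in the controls (SD, n = 4 each). Neither sum overlapped between the groups. The ratio of the mean FPKM (DNMT3A over control) was above 1 for 94 of the 97, and its median was 1.515-fold, or 0.60 on the log2 scale, with quartiles of 0.42 and 0.72. Over all 11620 tested genes the median log2 ratio was -0.01. At least 1.5-fold was reached by 49 block genes and at least 2-fold by 3.

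In the fit across all tested genes (limma on log2(FPKM + 1), adjusted p under 0.05), 81 of the 97 were called higher and 0 lower (89 and 0 at an unadjusted p under 0.05, and 0 lower by voom). Over all tested genes 9.93% were called higher and 10.6% lower, and the rule that chose the block used the same contrast, so nothing is read from the difference. All 4 DNMT3A libraries lay above all 4 controls for 84 block genes, against 12.1% of all tested genes: the 81 called genes and ARHGEF40, HOMEZ and FOXA1. The 4 DNMT3A libraries behaved alike. Relative to the mean of the controls, the median block gene stood at a log2 of 0.52, 0.55, 0.61 and 0.59 in DNMT3A libraries 1 to 4, against -0.01, 0.02, 0.01 and -0.02 in control libraries 1 to 4. The highest of the 8 libraries was a DNMT3A library for 96 genes, number 4 for 37 of them, and control library 2 for the remaining 1, HNRNPC.

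**Figure D1:**
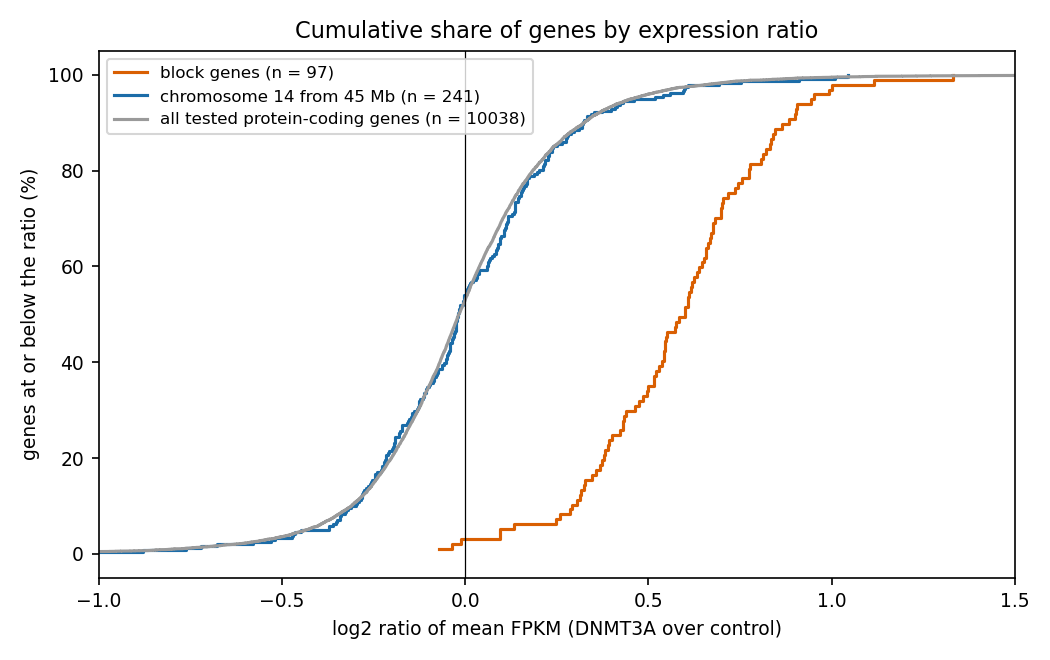
Cumulative share of genes (vertical axis, percent) at or below a given log2 ratio of mean FPKM, DNMT3A over control (horizontal axis), for the 97 block genes, the 241 protein-coding genes of chromosome 14 that start from 45 Mb on, and all 10038 tested protein-coding genes. The curve of the block genes stands to the right, with its middle at 0.60, while the other curves cross their middle at -0.02.

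Along the chromosome the median ratio was raised up to 45 Mb, the bound set by the rule, and near 0 beyond it. No block gene started between FBXO33 at 39.40 Mb and C14orf28 at 44.90 Mb, so where the raised genes ended was not located. No protein-coding gene before 20 Mb reached 1 FPKM. The 61 block genes from 20 to 25 Mb had a median log2 ratio of 0.57, and no block gene started between 25 and 30 Mb. The following stretches held fewer than 20 block genes each: the 17 from 30 to 35 Mb had a median of 0.64, the 16 from 35 to 40 Mb one of 0.56 and the 3 from 40 to 45 Mb one of 0.43. From 45 to 50 Mb, 12 protein-coding genes had a median of -0.01, and the 241 from 45 Mb to the end of the chromosome had one of -0.02. Of these 241, 27 were called higher and 26 lower, against 9.93% and 10.6% of all tested genes. The medians of the other 22 chromosomes measured lay between -0.17 on chromosome 13 and 0.0037 on chromosome 15.

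Split at gaps of more than 1 Mb between gene starts, the block fell into 6 clusters that differed in height. The first, 20 genes from TTC5 at 20.26 Mb to METTL3 at 21.50 Mb, was the lowest, with a median log2 ratio of 0.38 and 14 genes called higher. The 41 genes from DAD1 at 22.56 Mb to STXBP6 at 24.81 Mb had a median of 0.66, with 36 called. All 10 genes from G2E3 at 30.56 Mb to ARHGAP5 at 32.08 Mb were called, with a median of 0.79. The 17 genes from EGLN3 at 33.92 Mb to TTC6 at 37.60 Mb had a median of 0.61 and 14 calls, and the 6 from SEC23A to FBXO33 one of 0.65 and 6 calls. Genes next to each other within a cluster differed by a median of 0.17 (91 pairs), against 0.23 over all pairs of block genes. Overlapping neighbours could share reads, and all pairs mix clusters of different height, so these medians are not like for like.

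**Figure D2:**
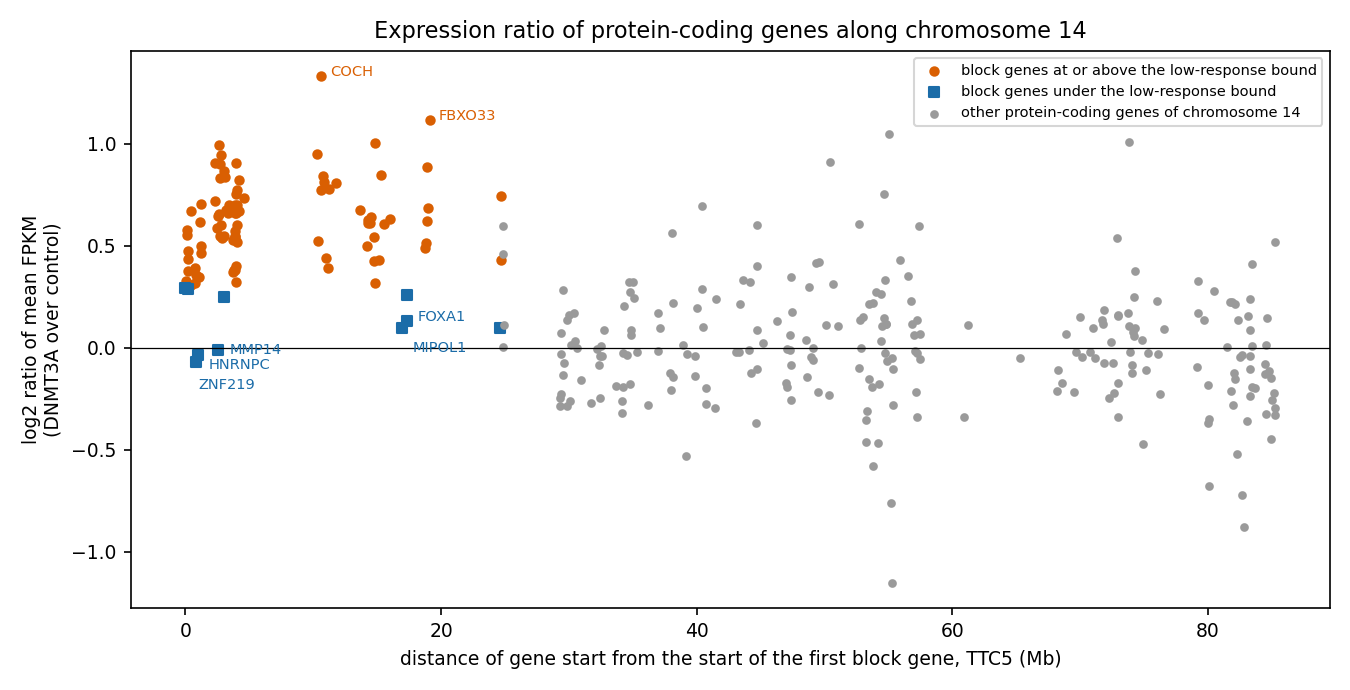
Log2 ratio of mean FPKM, DNMT3A over control (vertical axis), of each protein-coding gene of chromosome 14 with a mean of at least 1 FPKM, against the distance of its start from that of TTC5 in Mb (horizontal axis). The block genes lie above 0 apart from ZNF219, HNRNPC and MMP14, and the genes beyond the block spread about 0.

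At the far edge, high and level genes alternated. The last 3 block genes were C14orf28 (log2 ratio 0.09), KLHL28 (0.75) and TOGARAM1 (0.43). Just outside, PRPF39, a splicing factor, measured 10.2, 10.01, 10.99 and 15.2 FPKM in DNMT3A libraries 1 to 4, against 6.33, 9.55, 9.36 and 8.501 FPKM in control libraries 1 to 4. Its groups did not overlap, with a log2 ratio of 0.46, but it was not called (limma adjusted p = 0.072). FKBP3, a prolyl isomerase, measured 23.3, 22.9, 25.6 and 23.5 FPKM in the DNMT3A libraries and 25.4, 23.6, 22.3 and 23.6 FPKM in the controls, which overlapped fully. The helicase gene FANCM of the Fanconi anaemia pathway measured 2.49, 2.19, 2.23 and 3.002 FPKM in the DNMT3A libraries and 1.62, 1.68, 1.86 and 1.402 FPKM in the controls. The groups of FANCM did not overlap either, with a log2 ratio of 0.59, and it was called higher (limma adjusted p = 0.0165).

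The largest ratio was that of COCH, which encodes cochlin, a secreted matrix protein known from the inner ear. COCH (chr14:30874514-30895065, plus strand) measured 11.9, 11.7, 12.02 and 12.3 FPKM in DNMT3A libraries 1 to 4, against 4.501, 4.37, 4.89 and 5.26 FPKM in control libraries 1 to 4. Each DNMT3A library held a higher level than any control, and the ratio of the means was 2.52. FBXO33, an F-box adaptor of SCF ubiquitin ligases, measured 10.6, 10.5, 10.8 and 12.1 FPKM in DNMT3A libraries 1 to 4, against 5.04, 4.88, 5.02 and 5.35 FPKM in control libraries 1 to 4. Its ratio was 2.17, and DNMT3A library 4 stood above libraries 1 to 3. KIAA0391, the nuclease subunit of mitochondrial RNase P that trims the 5′ end of mitochondrial tRNAs, measured 2.45, 2.35, 2.38 and 3.54 FPKM in DNMT3A libraries 1 to 4, against 1.13, 1.47, 1.19 and 1.57 FPKM in control libraries 1 to 4, with a ratio of 2.002. COCH overlaps STRN3 and KIAA0391 overlaps PPP2R3C on the opposite strand; the library protocol names no step that marks strand, so the reads of such neighbours were not told apart. Of the 97 block genes, 43 overlap another tested gene, 37 of them on the opposite strand.

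The next 9 had log2 ratios between 0.85 and 0.99. LRP10, a sorting receptor of the LDL receptor family, measured 6.97, 6.75, 6.41 and 5.301 FPKM in DNMT3A libraries 1 to 4, against 3.94, 2.83, 2.74 and 3.26 FPKM in control libraries 1 to 4. G2E3, a ubiquitin ligase, had a log2 ratio of 0.95. ABHD4, a lipase of N-acyl phospholipid breakdown, had 0.90, and GMPR2, a GMP reductase of purine salvage, 0.90. AJUBA, a LIM-domain scaffold of Hippo signalling, measured 65.95, 61.5, 60.3 and 58.4 FPKM in the DNMT3A libraries and 33.8, 32.2, 32.5 and 33.4 FPKM in the controls. BCL2L2, a death-preventing BCL-2 relative, had 12.03, 12.5, 12.3 and 11.9 FPKM in the DNMT3A libraries and 7.104, 6.57, 6.32 and 6.78 FPKM in the controls. Groups were well apart in each, as the plot of library values shows.

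**Figure D3:**
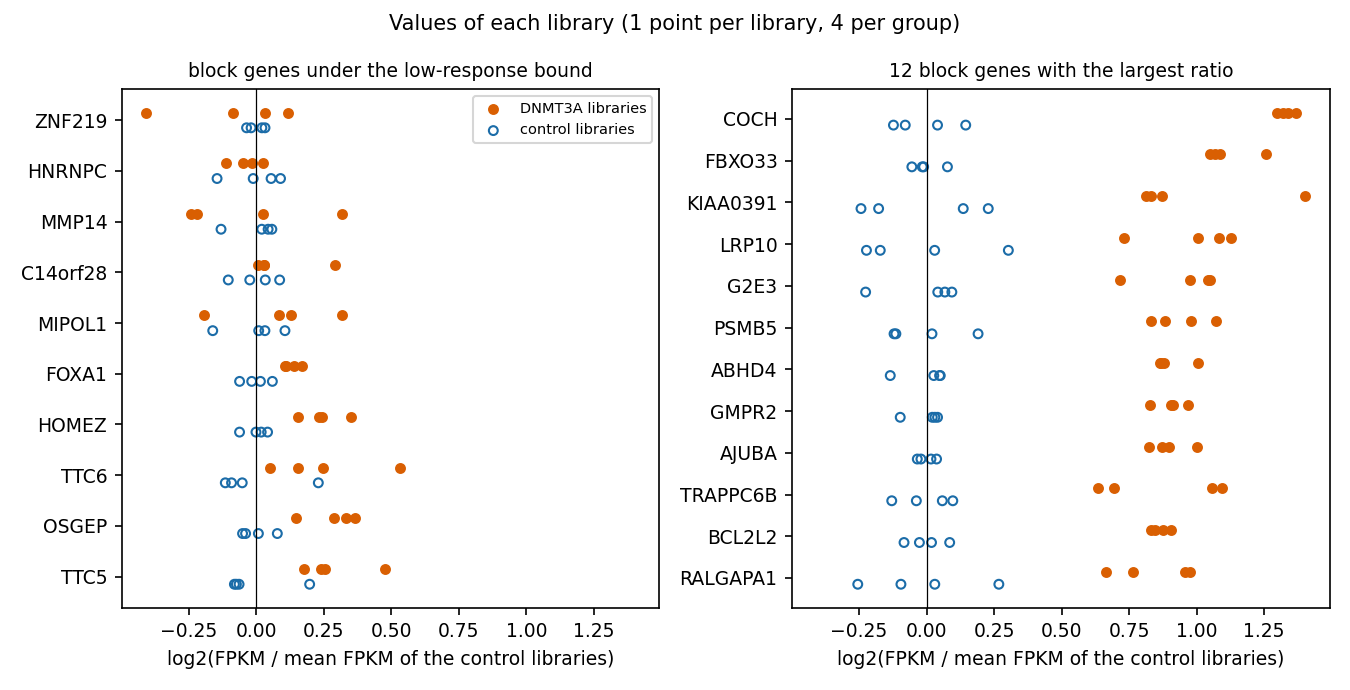
Each library's FPKM as the log2 ratio to the mean of the 4 control libraries (horizontal axis), for the 10 block genes under the low-response bound (left) and the 12 with the largest ratio (right), 1 point per library and 4 per group. On the left the groups overlap for 7 of 10 genes, and on the right the DNMT3A points start at 0.63 (TRAPPC6B) and the control points end at 0.30 (LRP10).

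The 3 proteasome genes had a median level of 128 FPKM, the highest of any role, and a median log2 ratio of 0.70. PSMB5, the chymotrypsin-like catalytic subunit of the proteasome, measured 156, 184, 172 and 161 FPKM in DNMT3A libraries 1 to 4, against 99.95, 88.8, 80.6 and 80.95 FPKM in control libraries 1 to 4. PSME1 and PSME2, the alpha and beta subunits of the PA28 activator cap, had log2 ratios of 0.55 and 0.70. PSME1 measured 138, 137, 163 and 173 FPKM in the DNMT3A libraries and 104, 109, 106 and 98.6 FPKM in the controls. PSME2 measured 45.6, 52.8, 53.6 and 57.2 FPKM in the DNMT3A libraries and 31.6, 34.7, 31.7 and 30.9 FPKM in the controls. Groups did not overlap for any of the 3. PSME2 has a transcribed named copy, PSME2P2, so some reads could be shared. Another subunit gene of the interval, PSMA6, fell just short of the level filter with a mean of 0.967 FPKM. It averaged 1.19 ± 0.211 FPKM in DNMT3A libraries and 0.741 ± 0.128 FPKM in controls. The other PSMA genes tested averaged from 0.896 (PSMA2) to 143 FPKM (PSMA7) in DNMT3A libraries. In controls they averaged from 1.36 (PSMA2) to 155 FPKM (PSMA7). Why PSMA6 stood so low was not tested, so its level is uncertain.

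All 7 genes placed under ubiquitin and NEDD8 conjugation were called higher, with a median log2 ratio of 0.75. CCNB1IP1, also a ubiquitin ligase, was placed under chromatin, transcription and DNA repair and was not called. Over the whole block 81 of 97 genes (83.5%) were called, a share that follows from how the block was chosen. The counts by role, here and below, are therefore not read as results about a role. The call of KLHL28, a substrate adaptor of the kelch family, ended in 7 of 17 alternative fits: with no filter on low values, with the replicate number as a block, without DNMT3A library 1, 3 or 4 and without control library 1 or 4 (limma adjusted p up to 0.0809). DCAF11, a substrate receptor of CUL4 ligases, measured 26.6, 26.1, 23.6 and 23.02 FPKM in DNMT3A libraries 1 to 4, against 17.3, 14.2, 15.2 and 16.2 FPKM in control libraries 1 to 4. Its log2 ratio was 0.66, and that of RNF31, the catalytic subunit of the linear ubiquitin assembly complex, 0.57. NEDD8, the ubiquitin-like protein that activates cullins, was the smallest of the 7 at 0.32, with 13.7, 14.7, 13.96 and 12.3 FPKM in the DNMT3A libraries and 10.6, 11.4, 11.2 and 10.4 FPKM in the controls. The groups of NEDD8 stayed apart.

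In membrane traffic every gene, 14 of 14, was called higher, against 83.5% of the block, with log2 ratios from 0.38 to 0.99 and a median of 0.64. The call of EMC9, a subunit of the membrane protein insertase EMC, ended with no filter and without DNMT3A library 3. SEC23A, which builds the inner COPII coat of vesicles leaving the endoplasmic reticulum, measured 87.2, 76, 80.8 and 84.8 FPKM in DNMT3A libraries 1 to 4, against 60.96, 57.5, 57.5 and 58.8 FPKM in control libraries 1 to 4. SNX6, a sorting nexin of retromer-linked recycling, had a log2 ratio of 0.63, and MIA2, which loads bulky cargo at endoplasmic reticulum exit sites, 0.68. TRAPPC6B, a subunit of the TRAPP tethering complex, reached 0.88 at a low level, 2.895 ± 0.476 FPKM in DNMT3A libraries and 1.57 ± 0.109 FPKM in controls (SD, n = 4 each).

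Of 15 genes of mitochondria, metabolism and solute transport, 14 were called higher, with a median log2 ratio of 0.58. The calls of 4 (PPP1R3E, DHRS4, DHRS4L2 and SDR39U1) ended in at least 1 alternative. DHRS2, a short-chain dehydrogenase, had the highest level of all 97 and measured 236, 254, 256 and 258 FPKM in DNMT3A libraries 1 to 4, against 159, 148, 151 and 161 FPKM in control libraries 1 to 4. OXA1L, which inserts proteins into the inner mitochondrial membrane, measured 67.5, 66.9, 72.8 and 67.4 FPKM in the DNMT3A libraries and 44.95, 43.6, 48.5 and 46.2 FPKM in the controls. PCK2, the mitochondrial phosphoenolpyruvate carboxykinase, was near the low end of the role at 0.38. SPTSSA, a small subunit of serine palmitoyltransferase, had 0.50. DHRS4 and DHRS4L2 are near-identical copies that could split reads, and their log2 ratios of 0.53 and 0.37 are uncertain for that reason.

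RNA processing and translation held 16 genes, of which 14 were called higher, with a median log2 ratio of 0.57. The calls of OSGEP and RNASE4 ended in at least 1 alternative. PNN, a splicing protein of desmosomes and nuclear speckles, measured 90.5, 102, 95.7 and 100.4 FPKM in DNMT3A libraries 1 to 4, against 53.1, 71.5, 63.7 and 64.5 FPKM in control libraries 1 to 4. SRP54, which binds signal peptides in the signal recognition particle, had a log2 ratio of 0.54, METTL3, the catalytic m6A methyltransferase, 0.50, and PABPN1, the nuclear poly(A)-binding protein, 0.83. The 2 genes not called were HNRNPC and ANG. Angiogenin (ANG), a secreted ribonuclease, had a log2 ratio of 0.31 with overlapping groups.

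Of 16 genes of chromatin, transcription and DNA repair, 12 were called higher, with a median log2 ratio of 0.51. The call of TEP1 ended in 7 of 17 alternative fits. APEX1, the abasic-site endonuclease of base excision repair, measured 101, 104, 103 and 81.7 FPKM in DNMT3A libraries 1 to 4, against 77.3, 76.8, 75.7 and 70.5 FPKM in control libraries 1 to 4. DNMT3A library 4 stood closest to the controls. SUPT16H, a subunit of the nucleosome chaperone FACT, had a log2 ratio of 0.35, and PRMT5, the symmetric arginine methyltransferase, 0.65. The 4 not called were CCNB1IP1, a ubiquitin ligase of meiotic crossing-over, ZNF219, HOMEZ and FOXA1.

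In the remaining roles most genes stood higher. Among 10 genes of cytoskeleton, matrix and scaffolds, 8 were called higher with a median log2 ratio of 0.69, among them CFL2, the actin-severing cofilin 2 (0.61), and STRN3, a striatin scaffold (0.77). Stress and death signalling had 4 of 5 called: NFKBIA, the inhibitor of NF-kB, measured 80, 89.3, 84.4 and 69.1 FPKM in the DNMT3A libraries and 64.8, 62.01, 55.9 and 56.6 FPKM in the controls, a log2 ratio of 0.43. In the group of other genes 5 of 11 were called, with a median of 0.43 and a median level of 1.91 FPKM. DAD1, a subunit of oligosaccharyltransferase, was the most abundant of these and measured 188, 179, 183 and 209 FPKM in DNMT3A libraries 1 to 4, against 125, 116, 113 and 107 FPKM in control libraries 1 to 4.

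Genes that escaped the common difference were counted against a low-response bound of 0.30, which is 0.5 times the median log2 ratio of the block. There were 10 under it: ZNF219, HNRNPC, MMP14, C14orf28, MIPOL1, FOXA1, HOMEZ, TTC6, OSGEP and TTC5. Just above the bound stood ANG and NDRG2, both at 0.31. The groups overlapped for 7 of the 10 and were apart for FOXA1, HOMEZ and OSGEP.

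ZNF219, HNRNPC and MMP14 were about as high in the controls. ZNF219, a zinc-finger transcription factor (chr14:21090046-21104722, minus strand), measured 13.04, 13.8, 12.02 and 9.62 FPKM in DNMT3A libraries 1 to 4, against 13.1, 12.9, 12.6 and 12.4 FPKM in control libraries 1 to 4. Its log2 ratio was -0.07, and the sign turned without DNMT3A library 4 (0.02 on the log2(FPKM + 1) scale). HNRNPC, a heterogeneous nuclear ribonucleoprotein that packages new pre-mRNA, measured 80.8, 84.99, 82.8 and 77.5 FPKM in DNMT3A libraries 1 to 4, against 86.8, 88.97, 82.95 and 75.6 FPKM in control libraries 1 to 4. At -0.04 it was the only one of the 12 most abundant under the bound. MMP14, a membrane-type matrix metalloproteinase, measured 3.95, 4.84, 3.34 and 3.29 FPKM in DNMT3A libraries 1 to 4, against 4.01, 3.94, 3.55 and 4.05 FPKM in control libraries 1 to 4. Its log2 ratio of -0.01 turned positive without DNMT3A library 3 (0.03 on the log2(FPKM + 1) scale) or 4 (0.036).

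HNRNPC and ZNF219 are consecutive genes of the block, and their neighbours stood higher in the DNMT3A libraries. SUPT16H, the next gene after HNRNPC, measured 72.1, 71.6, 66.3 and 68.3 FPKM in the DNMT3A libraries and 55.05, 55.8, 54.3 and 53.9 FPKM in the controls. ARHGEF40, a guanine nucleotide exchange factor whose gene overlaps ZNF219 on the opposite strand, measured 9.11, 9.22, 8.68 and 7.88 FPKM in the DNMT3A libraries and 7.78, 5.46, 6.16 and 7.85 FPKM in the controls and was not called although its groups did not overlap. HNRNPC has 13 genes named as its copies, of which 1, HNRNPCP2 on chromosome 2, reached 1 FPKM with a log2 ratio of 0.32 (adjusted p = 0.347); reads of such copies could be shared, so the value of HNRNPC is uncertain to that extent.

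FOXA1, the pioneer transcription factor that opens chromatin for liver genes, stood in another run of 3 consecutive low genes. It measured 24.9, 25.4, 24.3 and 24.4 FPKM in DNMT3A libraries 1 to 4, against 21.6, 22.8, 23.5 and 22.3 FPKM in control libraries 1 to 4. The groups did not overlap, but its log2 ratio was 0.13, against 0.63 for MBIP before the run and 0.49 for SEC23A after it. MIPOL1, before it, averaged 1.097 ± 0.156 FPKM in DNMT3A libraries and 1.03 ± 0.0785 FPKM in controls. TTC6, which overlaps FOXA1 on the opposite strand, averaged 2.08 ± 0.3096 FPKM in DNMT3A libraries and 1.74 ± 0.203 FPKM in controls (SD, n = 4 each). The groups overlapped for both. HOMEZ, a homeobox and leucine zipper gene, had 3.38, 3.65, 3.36 and 3.19 FPKM in the DNMT3A libraries and 2.86, 2.897, 2.94 and 2.74 FPKM in the controls. OSGEP, the KEOPS subunit that modifies tRNA, had 4.196, 4.63, 4.77 and 4.89 FPKM in the DNMT3A libraries and 3.81, 3.69, 3.66 and 4.004 FPKM in the controls. OSGEP was called higher with a log2 fold change of 0.23 on the log2(FPKM + 1) scale, and the call ended without DNMT3A library 3 (0.22) or 4 (0.21) or without control library 1 (0.23), 2 (0.22) or 3 (0.22). The call of OSGEP also ended with no filter on low values (limma adjusted p = 0.053) and with the replicate number as a block (0.0612). C14orf28, of the last cluster, averaged 1.55 ± 0.153 FPKM in DNMT3A libraries and 1.45 ± 0.0815 FPKM in controls. TTC5, a tetratricopeptide protein and the first gene of the block, averaged 2.22 ± 0.208 FPKM in DNMT3A libraries and 1.81 ± 0.177 FPKM in controls (SD, n = 4 each).

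Not being called was a different matter from a low ratio. Of the 16 genes not called, 7 had log2 ratios above the bound: CCNB1IP1 (0.33), ANG (0.31), ARHGEF40 (0.36), FITM1 (0.54), TSSK4 (0.66), LTB4R (0.60) and TOGARAM1 (0.43). FITM1, which shapes lipid droplets, TSSK4, a testis kinase, and LTB4R, a leukotriene B4 receptor, averaged 1.004, 1.37 and 1.07 FPKM, close to the level filter. Of the 16, 8 averaged under 3 FPKM, as did 19 of all 97. At mean FPKM of at least 5 there were 72 block genes, of which 66 were called higher and 3 lay under the bound.

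Promoter sequence was set beside the ratios, because DNMT3A acts on CG sites; methylation, chromatin and copy number of the interval were not analysed here. A RefSeq promoter was matched for 83 of the 97 genes (GRCh38.p14, the 250 bases before the RefSeq start). The 3 genes with the lowest ratios, ZNF219, HNRNPC and MMP14, and 3 raised genes, COCH, PSMB5 and DHRS2, are shown 5′ to 3′ with each CG in capitals, leaving out bases inside the annotated gene. They lie at chr14:21104723-21104972 (minus strand), chr14:21269495-21269692 (minus), chr14:22836335-22836556 (plus), chr14:30874309-30874513 (plus), chr14:23035231-23035470 (minus) and chr14:23629865-23630114 (plus).
ZNF219: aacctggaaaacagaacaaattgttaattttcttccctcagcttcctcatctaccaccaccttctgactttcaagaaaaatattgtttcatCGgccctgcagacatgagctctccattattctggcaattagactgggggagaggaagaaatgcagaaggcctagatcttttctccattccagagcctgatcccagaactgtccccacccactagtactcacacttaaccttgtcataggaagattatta
HNRNPC: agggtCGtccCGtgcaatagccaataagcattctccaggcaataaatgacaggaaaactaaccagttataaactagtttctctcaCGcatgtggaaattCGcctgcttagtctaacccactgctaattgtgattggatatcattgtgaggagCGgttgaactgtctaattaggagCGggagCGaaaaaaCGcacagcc
MMP14: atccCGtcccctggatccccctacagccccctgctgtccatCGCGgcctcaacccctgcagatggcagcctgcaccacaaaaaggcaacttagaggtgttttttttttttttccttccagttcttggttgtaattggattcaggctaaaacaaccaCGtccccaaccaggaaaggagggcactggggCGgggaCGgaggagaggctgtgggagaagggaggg
COCH: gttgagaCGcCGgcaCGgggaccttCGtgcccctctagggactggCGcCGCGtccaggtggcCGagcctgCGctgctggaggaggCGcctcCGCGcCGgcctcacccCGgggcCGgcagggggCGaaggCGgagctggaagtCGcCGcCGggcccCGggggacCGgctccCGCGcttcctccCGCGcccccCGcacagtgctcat
PSMB5: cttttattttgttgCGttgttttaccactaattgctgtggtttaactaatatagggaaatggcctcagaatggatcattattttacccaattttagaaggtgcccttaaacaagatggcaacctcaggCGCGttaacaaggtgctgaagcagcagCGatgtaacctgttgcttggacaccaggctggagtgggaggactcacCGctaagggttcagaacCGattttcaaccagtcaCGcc
DHRS2: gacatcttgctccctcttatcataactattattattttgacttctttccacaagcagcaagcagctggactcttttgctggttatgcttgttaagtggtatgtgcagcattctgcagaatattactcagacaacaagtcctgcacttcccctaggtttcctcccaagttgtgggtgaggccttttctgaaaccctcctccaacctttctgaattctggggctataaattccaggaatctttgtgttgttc

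Both kinds of gene spanned the range from CG-poor to CG-rich. ZNF219, with a log2 ratio of -0.07, held 1 CG in 250 bases, and DHRS2, the most abundant raised gene, held 0 in 250. HNRNPC held 8 in 198 bases and MMP14 6 in 222, while PSMB5 held 7 in 240. COCH, with the largest ratio, held 27 in 205. In the full 250 bases FOXA1 held 26 and MIPOL1 28.

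Over the 83 promoters the ratio of observed to expected CG and the log2 ratio had a Spearman rho of -0.0039 across genes, which are not independent replicates. The median of observed over expected CG was 0.76 in the lowest-ratio group of 28 promoters, 0.74 in the middle 28 and 0.76 in the highest 27, and 0.84 over 8082 promoters of all tested protein-coding genes. The motif GGGCGG, searched on both strands, was in 67.5% of block promoters and 69.3% of all. CCAAT was in 41.0% of block promoters and 35.8% of all, and TATAAA in 12.05% and 4.85%; overlap between motifs was not excluded, and a match is only a match of letters. Against the log2 ratio over 97 genes, rho was -0.0047 for mean FPKM, 0.079 for the genomic span and 0.055 for the gene length. The 47 genes on the plus strand had a median log2 ratio of 0.58 and the 50 on the minus strand 0.60.

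**Figure D4:**
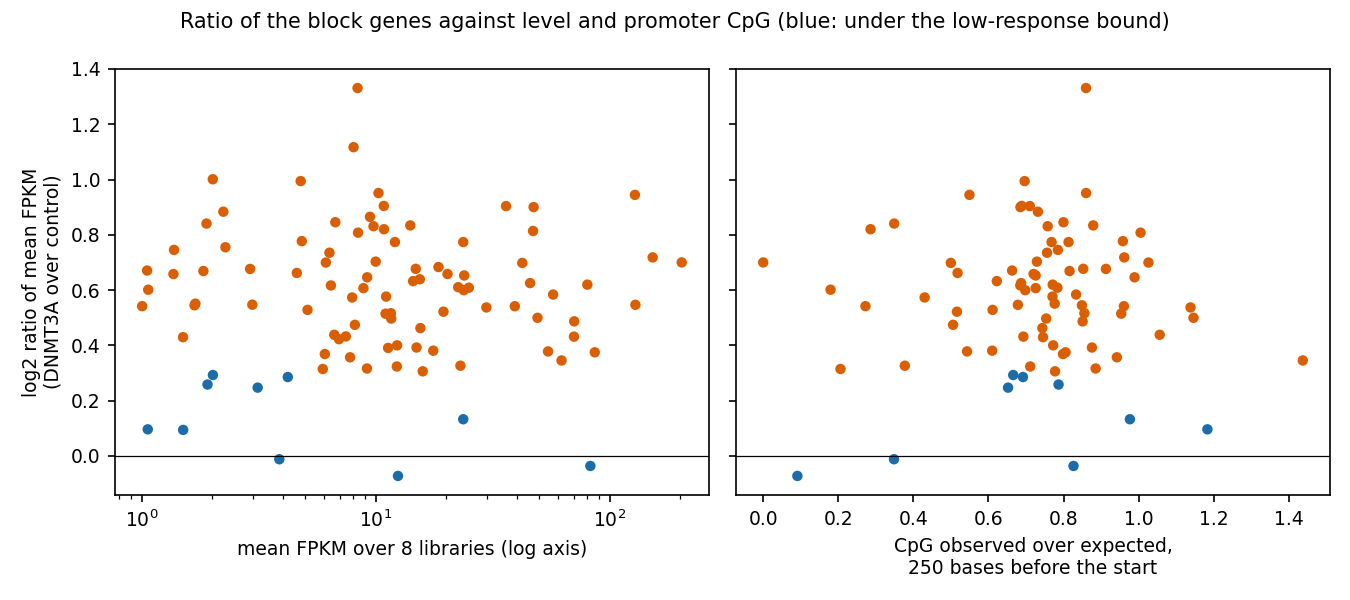
Log2 ratio of mean FPKM, DNMT3A over control, of the block genes (vertical axes) against mean FPKM on a log axis (left, 97 genes) and against observed over expected CG in the 250 bases before the RefSeq start (right, 83 genes), with genes under the low-response bound in blue. Spearman rho was -0.0047 on the left and -0.0039 on the right.

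Many block genes encode subunits of complexes whose other subunits lie outside the interval. The list of these partners was drawn up with earlier results of these data known, so they are no independent contrast. Among them PSMA3, PSMC1, PSMC6 and GON7 lie on chromosome 14, where the bounds of the block were set with fold changes known. For 19 complexes with a gene in the interval, 104 partners encoded elsewhere were listed from known composition, and 101 were tested in the fit across all genes. Of these, 3 were called higher and 3 lower, or 5.94%, against 20.6% of all tested genes called in either direction. The median log2 ratio of the partners was -0.04, and that of the 21 block genes of these complexes 0.55. In each of the 18 complexes with a block gene past the filter, every listed partner that was tested lay below its lowest block gene. The height of that block gene was fixed by the choice of the block. Not every subunit of each complex was listed, and the partners of NEDD8 are enzymes of its conjugation.

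The proteasome had the most partners. Around PSMB5, PSME1 and PSME2, the 31 tested partners had a median log2 ratio of -0.01, with 1 called higher and 0 lower by limma (1 higher and 4 lower at an unadjusted p under 0.05). PSMB6, another catalytic subunit, averaged 57.8 ± 3.502 FPKM in DNMT3A libraries and 54.5 ± 3.57 FPKM in controls (SD, n = 4 each, log2 fold change 0.08 ± 0.066 SE, limma adjusted p = 0.397). PSME4, the PA200 cap, was the one called, with 27.2, 26.4, 26.2 and 28.6 FPKM in the DNMT3A libraries and 22.6, 22.96, 23.5 and 24.2 FPKM in the controls (log2 fold change 0.21 ± 0.051, limma adjusted p = 0.0191). SSRP1, the partner of SUPT16H in FACT, averaged 31.8 ± 2.71 FPKM in DNMT3A libraries and 33.6 ± 1.43 FPKM in controls (-0.08 ± 0.069, limma adjusted p = 0.425). WDR77, which works with PRMT5, had a log2 fold change of -0.10 ± 0.077 (limma adjusted p = 0.369). TRMT10C, in mitochondrial RNase P with KIAA0391, averaged 17.7 ± 1.01 FPKM in DNMT3A libraries and 20.3 ± 1.68 FPKM in controls (-0.19 ± 0.070, limma adjusted p = 0.0866).

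Among the other complexes, SEC24A, a cargo adaptor of the COPII coat, was higher (0.25 ± 0.074, limma adjusted p = 0.0382), as was TERF2IP of the telomeric shelterin complex (0.27 ± 0.069, adjusted p = 0.0224). Lower were GEMIN4 of the SMN complex (-0.38 ± 0.074, limma adjusted p = 0.00768), RABGGTB, the beta subunit of Rab geranylgeranyl transferase (-0.29 ± 0.058, adjusted p = 0.00861), and POLE3, a histone-fold subunit of CHRAC (-0.22 ± 0.067, adjusted p = 0.0462). GEMIN4 measured 6.95, 7.996, 6.28 and 6.29 FPKM in the DNMT3A libraries and 8.83, 9.01, 9.502 and 9.49 FPKM in the controls. RABGGTB measured 21.7, 21.5, 22.1 and 23.7 FPKM in the DNMT3A libraries and 25.7, 29.3, 26.7 and 27.9 FPKM in the controls. The groups did not overlap in either. Both calls held in all 17 alternatives compared. The call of PSME4 ended without control library 1, 2 or 3 and with the replicate number as a block (limma adjusted p = 0.0531 to 0.0548). That of TERF2IP ended without DNMT3A library 1 or 3, without control library 1, 3 or 4 and with no filter on low values (0.0541 to 0.068). SEC24A lost it without any one library other than DNMT3A 2 and with no filter (limma adjusted p = 0.06 to 0.101). POLE3 lost it in 13 of the 17, namely without any one library other than control 4, with no filter, quantile scaling, no trend, the replicate block, voom or scaling to the read total (adjusted p = 0.0559 to 0.13). SMN1 and SMN2, near-identical copies in the SMN complex, had log2 ratios of -0.84 and 0.48 and cannot be told apart with certainty.

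**Figure D5:**
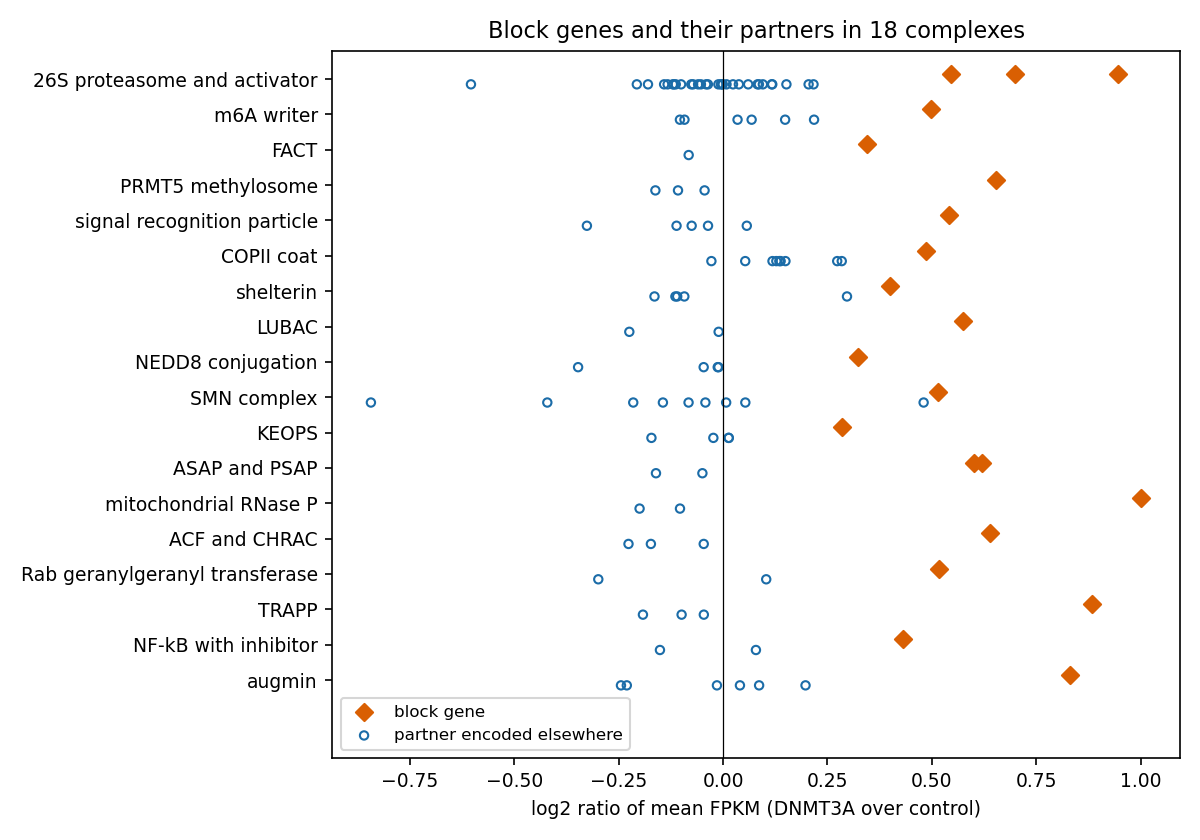
Log2 ratio of mean FPKM, DNMT3A over control (horizontal axis), for block genes and for their partners encoded elsewhere in the genome, in 18 complexes (rows). The 21 block genes lie between 0.29 (OSGEP) and 1.001 (KIAA0391), and within each complex every partner shown lies to the left of the block genes.

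Genes that the level filter or the biotype kept out mostly stood higher as well. They lie in the same interval, which was chosen on fold changes between these libraries, so their values are no separate test. Reads of overlapping genes were not told apart. AL132780.1, DHRS4-AS1, AL136295.2, SRP54-AS1, AL355075.2, AL161668.4 and AL121603.2 overlap block genes on the opposite strand. SNORA79B, AL132780.4 and RNA5SP383 overlap block genes on the same strand. The 101 protein-coding genes of the interval under 1 FPKM, 57 of them with any read, summed to 839, 946, 897 and 906 reads in DNMT3A libraries 1 to 4, against 524, 601, 505 and 647 reads in control libraries 1 to 4. Scaled to the read totals, the ratio of the group means was 1.51, and the groups did not overlap. Of the 27 with at least 50 reads in all, 25 had a ratio above 1. NRL, the nearest under the filter at a mean of 0.98 FPKM, had a log2 ratio of 0.15 with overlapping groups. SALL2 (0.22) and CDH24 (0.17) also had overlapping groups, while those of PSMA6 (0.69) and THTPA (1.02) stood apart. IRF9, the DNA-binding subunit of the interferon-responsive ISGF3, measured 0.362, 0.446, 0.455 and 0.555 FPKM in the DNMT3A libraries and 0.0662, 0.276, 0.133 and 0.165 FPKM in the controls. Of 17 tested genes of other biotypes, 7 were called higher and 0 lower by limma (9 and 1 at an unadjusted p under 0.05), against 9.93% and 10.6% of all tested genes. Their median log2 ratio was 0.60, and 14 of the 17 had a ratio above 1. DHRS4-AS1, antisense to DHRS4, measured 9.05, 9.67, 9.05 and 8.59 FPKM in the DNMT3A libraries and 6.95, 5.76, 6.28 and 7.15 FPKM in the controls. LINC00641 lay the other way, with 1.25 to 1.49 FPKM in the DNMT3A libraries and 1.59 to 2.22 FPKM in the controls. Its groups did not overlap, but it was not called (log2 ratio -0.33, limma adjusted p = 0.154). AL161668.4 (-0.48) and SNORA79B (-0.06) were also below 0, with overlapping groups.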

How the data were processed

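There were 8 RNA libraries of HepG2 cells, 4 per group, and groups were taken from the sample titles. HISAT2 2.0.5 and the hg38 build are named in the submitters' processing notes; no counting program is named there. The deposited values are FPKM per gene and library, per the file headers, so a level is per kilobase of gene and depends on the library scaling. Multiplying by gene length gave whole reads for 100% of values (tolerance 0.01), and the scaling so recovered equalled median-ratio size factors. All gene coordinates were identical to GENCODE 29. Whole reads behind a block gene averaged at least 23.4 per library (median 788.5), and 11 was the lowest in any library.

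Genes averaging at least 1 FPKM (11620) were compared on log2(FPKM + 1), which understates the change of low genes, with limma 3.58.1 in R 4.3.3 (intensity trend, Benjamini-Hochberg adjustment over all of them, threshold 0.05). The fit was tested on simulated data. Ratios of mean FPKM carry no pseudocount, and summaries used Python 3.11.15 with pandas 2.3.3 and scipy 1.17.1. Separate cultures are not stated in the labels, and p-values then cover the spread between libraries alone. The block genes, roles and partner list were chosen with earlier results of these data known. Named are DNMT3A, block genes not called or under the bound, the 12 with the largest ratio, the 12 most abundant, the 3 most abundant of each role, the genes at the bounds, and partners; any other gene of the interval (such as METTL3, PABPN1, RNF31, MIA2, NDRG2, MBIP, DHRS4, DHRS4L2, KLHL28, STXBP6 and the antisense gene DHRS4-AS1) was picked after its values were seen. Alternatives were a pseudocount of 0.1, no filter, median-ratio and quantile scaling, no trend, array weights, a replicate block, voom on recovered reads, protein-coding genes only, narrower block definitions, leaving out each library and, chosen after seeing the data, scaling to the read total. Median-ratio scaling multiplied every library by the same 1.007, so of the 18 refits the other 17 were compared for lost calls. Some genes of the interval and next to it are not reported here.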

Additional observations from a re-analysis of the deposited data

Results flagged for a closer look

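Among the 40 named genes and the summed level of the block, each checked in both groups, a library stood far from the other 3 of its group in 10 of 82 cases, where its gap to the nearest library over the range of the group passed Dixon's 95% critical value; chance flags about 1 in 20 groups. In the DNMT3A libraries the highest stood apart for ABHD4 (0.903), OXA1L (0.894), KIAA0391 (0.917), FBXO33 (0.83) and C14orf28 (0.923), and the lowest for APEX1 (0.871). In the control libraries the highest stood apart for TTC5 (0.943) and TTC6 (0.835), and the lowest for ABHD4 (0.863) and GMPR2 (0.853). DNMT3A library 4 was the one apart for KIAA0391, FBXO33, C14orf28 and APEX1.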

How the results depend on the processing

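The count of block genes called higher was 73 to 80 of 97 with 1 library left out and 0 were called lower in any alternative run; 72 of the 81 calls held in all 17 alternatives compared (median-ratio scaling, a uniform factor, is not counted), and TEP1, OSGEP, RNASE4, PPP1R3E, DHRS4, DHRS4L2, EMC9, SDR39U1 and KLHL28 lost theirs in at least 1. Of the 16 genes not called, 9 were called in no alternative, and TTC5, CCNB1IP1, ANG, ARHGEF40, HOMEZ, TSSK4 and LTB4R in some. Scaling to the read total gave 83 calls and a median log2 fold change of 0.53, against 0.51 on the deposited scale. The median was 0.583 with a pseudocount of 0.1 and 0.614 with voom, which follow low genes more fully, and 0.491 to 0.521 with 1 library left out. Genes under the low-response bound numbered 9 to 13 without 1 library and 3 among those of at least 5 FPKM, where fewer genes are counted. Without 1 library ZNF219 ran from -0.141 (without DNMT3A replicate 2) to 0.02 (without DNMT3A replicate 4) and MMP14 from -0.113 (without DNMT3A replicate 2) to 0.03 and 0.036 (without DNMT3A replicates 3 and 4); HNRNPC was 0.043 under quantile normalization.

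Calls over all tested genes numbered 3756 with array weights, 810 higher and 786 lower with no filter, and 1508 to 2443 without 1 library (1551 without control library 2 and 1508 without control library 3). Partner calls, 6 in the fit reported, numbered 3 with no filter, 14 with array weights, 11 with voom, 12 among protein-coding genes only, and 2 to 8 without 1 library (3 without DNMT3A library 3, control library 1 or control library 2, and 2 without control library 3); the cause was not tested.

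The labels do not say whether libraries of the same replicate number were paired. The correlations of same-numbered deviations were 0.159, -0.0816, -0.0248 and 0.0978, and DNMT3A library 2 correlated best with control library 1. Deviations were taken from the mean of each group of 4 libraries, which constrains these correlations, so whether libraries were paired stays unknown. With the replicate number as a block 77 block genes, 5 partners and 1881 genes in all were called, against 81, 6 and 2389. Depth limits the low genes, and 19 of the 97 averaged under 3 FPKM.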
